A study of Mus musculus with 40 samples.

Results

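Integrins are receptors of 1 alpha and 1 beta chain that fix cells to the matrix around them, and laminins are matrix proteins of 1 alpha, 1 beta and 1 gamma chain. The genes described here are integrin and laminin chains of the 2 deposited expression tables, found by symbol in both: 17 integrin alpha chains, 8 integrin beta chains and 10 laminin chains, 35 of 23480 genes. Every one of the 35 had reads in both tables, so none was skipped. The cells were 4T1, a mouse mammary carcinoma line, and each culture carried 1 of 10 short hairpin RNAs (shRNAs), stem-loop RNAs that are processed into a small RNA and lower mRNAs that pair with it.

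In an epithelium, laminins form the sheet-like basement membrane on which the cells sit. Lama3 and Lamb3 are chains of laminin 332, which is the anchoring laminin of stratified and glandular epithelia and is bound by the integrins of Itga3 with Itgb1 and of Itga6 with Itgb4, the latter at the plaques called hemidesmosomes. Laminin 511, made of Lama5, Lamb1 and Lamc1, is widespread in basement membranes and is bound by Itga3 or Itga6 with Itgb1. Itgb1 also pairs with collagen-binding chains such as Itga1 and Itga2 and with chains that read the RGD sequence of fibronectin and related proteins, such as Itga5 and Itga8, while Itgav pairs with several beta chains.

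The study asked how far hairpins against 1 gene give like expression profiles. The Slpi table held hairpin 66708 and the hairpins Slpi1U1, Slpi1U2, Slpi2 and Slpi4, and the Mgp table held hairpin 88943 and the hairpins Mgp1, Mgp1U1, Mgp1U3 and Mgp2, each in 2 libraries. The design text names a TRC library and the shERWOOD algorithm as sources. Since only 66708 and 88943 have catalogue-style numbers, these are called TRC hairpins here and the other 8 shERWOOD hairpins; no label states this for a single hairpin. All cultures were 4T1 cells, infected (multiplicity 0.3) and then kept under drug for an average of 10 days, those with 66708 or 88943 in 1 µg/ml puromycin and those with the other 8 in 500 µg/ml hygromycin. Hairpin source, vector and drug therefore cannot be told apart in any TRC comparison, and no untransduced culture was analysed here. Each table holds only 1 TRC hairpin, so its own sequence, its line and the level of its target cannot be told apart from these either. No p-value of a TRC comparison holds a spread between TRC lines. The 2 tables share no library, so the comparisons of 66708 and of 88943 share none.

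Library totals ran from 12.2 M to 28.5 M reads (Slpi table) and from 12.1 M to 23.3 M (Mgp table). The labels do not say whether the 2 libraries of a hairpin were grown apart, and every p-value here therefore rests on a spread between libraries that may be technical. The targeted genes check the labels only in part: Slpi stood at 156 and 145 CPM (reads relative to the library total) with 66708 and at 46.9 to 61.9 CPM with the other 4 hairpins of its table, and Mgp at 16.2 and 15.4 CPM with 88943 and at 1.06 to 8.42 CPM with the other 4. Both genes also differed between lines that do not target them: Slpi was at 145 and 135 CPM with 88943 and at 448 to 613 CPM with the other Mgp hairpins, and Mgp at 108 and 102 CPM with 66708 and at 14.8 to 31.2 CPM with the other Slpi hairpins. The ribosomal precursor Rn45s took 2.77% and 2.31% of the reads with 66708 and 1.27% to 1.87% with the other 4 hairpins of the table. In the Mgp table it took 2.39% in the first Mgp2 library and 0.961% to 1.71% in the others. The part of Rn45s in the results was not tested. Of 12 epithelial marker genes 10 passed the minimum for testing in each table, while 9 of 10 leukocyte markers stayed under 1 CPM in all 10 libraries of either table.

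Levels between chains are compared as RPKM, reads relative to both exon length and library total, with lengths of the GENCODE M21 annotation of GRCm38. On this scale 17 of the 35 chains were at 1 RPKM or more in all 20 libraries. Itgb1 was the most abundant, with a mean over the 10 hairpins of 226 RPKM (203 to 251 by hairpin), followed by Itga3 at 123 RPKM (106 to 144). These 2 chains led in every line, and their hairpin ranges did not overlap. Among laminin chains Lamc1 stood at 62.2 RPKM and Lamb1 at 54.7 RPKM, with hairpin ranges that overlapped. Below these were Itga6 at 47.6 RPKM (43.1 to 50.9), Itgav at 34.1 RPKM (27.5 to 37.6) and Lama5 at 27.0 RPKM (21.0 to 33.6). Itga2 stood at 18.9 RPKM, and Itgb2, Itga5, Itgb4, Itgb5 and Lamb3 had means of 12.7, 10.8, 9.63, 9.25 and 9.18 RPKM whose hairpin ranges overlapped each other. Itgb3 at 6.31, Lamb2 at 4.53, Itga8 at 2.74, Lama3 at 2.32, Itga7 at 1.61 and Itga1 at 1.12 RPKM were the other chains above 1 RPKM on average. The order depends on the gene model. With the longest transcript as the length Itga6 came to 99.6 RPKM, above Lamb1 at 93.8 and Lamc1 at 67.5, and Itga7 came to 3.25 RPKM, above Lama3 at 2.36, while Itgav and Itga1 came to 52.0 and 1.89 RPKM. In the heat map of levels the first 19 chains, from Itgb1 to Itga1, are also the 19 that passed the minimum for testing in both tables, which asks for a mean at least 1 unit over the table's floor.

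The remaining 16 chains were under the minimum for testing in both tables. Itgb7 (0.738 RPKM), Itgb6 (0.555), Itgae (0.548), Itga10 (0.479), Itga2b (0.243), Itga11 (0.101) and Itgb8 (0.0750) had reads in all 20 libraries. Itga4, Itga9, Itgal, Itgam, Itgax, Lama1, Lama2, Lama4 and Lamc3 had mean levels of at most 0.0148 RPKM, and each lacked reads in some libraries. Among the 16 are the alpha chains that leukocytes use with Itgb2 (Itgal, Itgam, Itgax), the laminin alpha chains of embryo, muscle and vessel wall (Lama1, Lama2, Lama4), and Itga2b, the platelet chain. Of the exon bases of Itgam 68.67% and of those of Itga10 33.53% also belong to another gene model, and the strand setting of the counting is not given in the sources used here. The share was at most 8.041% for each of the others.

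**Figure D1:**
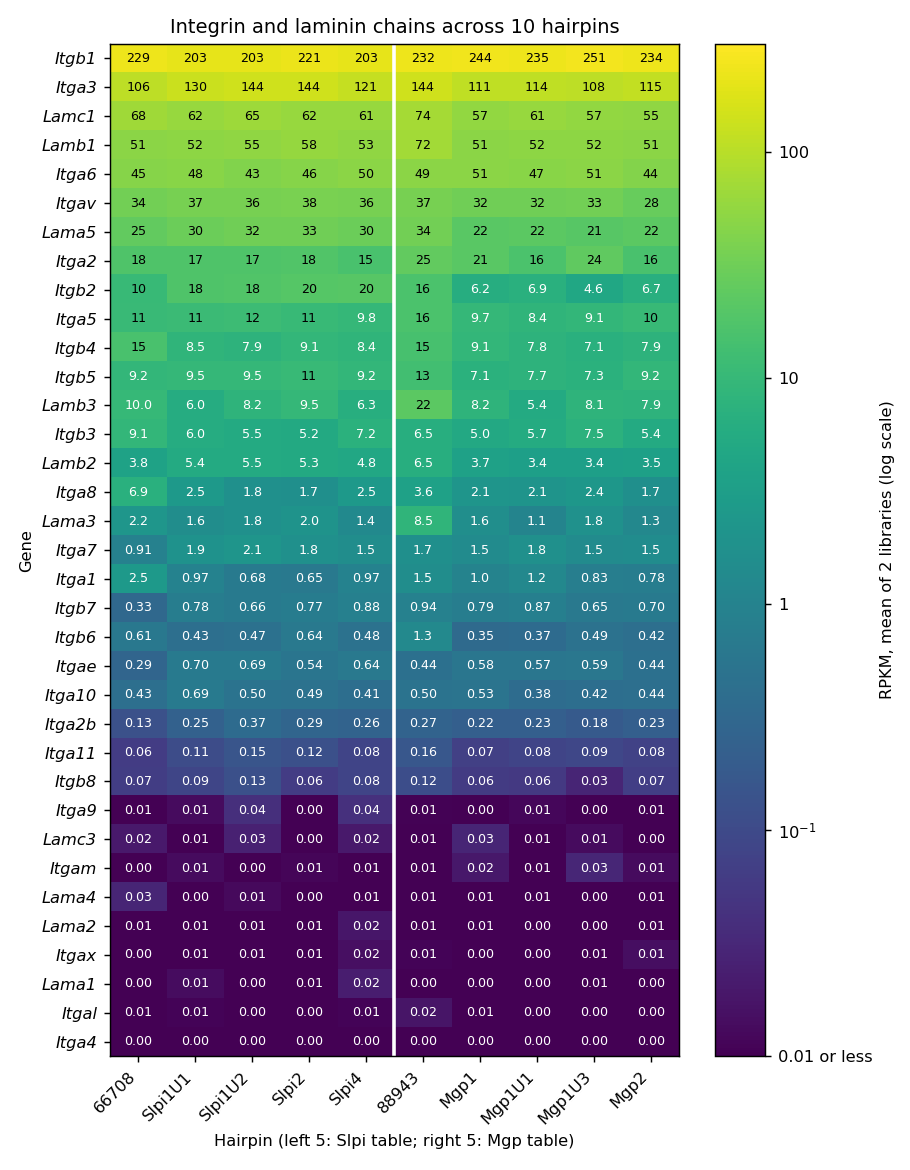
Levels of the 35 chains in RPKM, mean of the 2 libraries, by hairpin (columns; 66708 and 88943 lead their tables) and chain (rows, by mean level), with colour on a log scale and levels of 0.01 or less in the darkest colour. Itgb1 and Itga3 are the highest chains in every column, and Lama3 goes from 1.06 to 2.24 RPKM in the other 9 columns to 8.49 RPKM in 88943.

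Within a table, values below are normalised reads: whole reads recovered from the deposited values and scaled with the table's own size factors. Tests were run with limma on the deposited log2-like values, and a chain is called higher or lower at a Benjamini-Hochberg adjusted p under 0.05 over all genes tested. On that scale a doubling of 100 normalised reads is a difference of 0.36 (Slpi table) or 0.34 (Mgp table), and a doubling of 1000 reads one of 0.77 or 0.75, so folds are given as ratios of normalised reads. With 66708, 9 of the 19 tested chains were higher than in the 4 shERWOOD lines and 5 were lower, against 32.1% of all tested genes called higher and 23.6% called lower. In normalised reads both 66708 libraries lay outside the 8 shERWOOD libraries in all 14 (27.0% of all genes were higher and 19.2% lower with that condition). In CPM this was lost for some chains. The 66708 mean was below the highest shERWOOD library for Itga2 (127 against 130 CPM) and Lamb3 (65.8 against 67.7 CPM), and Itgb1 overlapped too. With 88943, 15 of the same 19 chains were higher and 1 was lower, against 28.7% and 42.0% of all genes; 12 of the 15 and the 1 lay outside the shERWOOD libraries (23.8% and 35.6%).

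The median difference was 0.07 over the 19 chains and 0.02 over all tested genes with 66708, and 0.33 and -0.04 with 88943. Scaling to library totals, an alternative chosen after seeing the data, moved these all-gene medians to -0.03 and 0.04. It also changed the share of all calls that were higher from 57.6% to 37.7% with 66708 and from 40.6% to 59.6% with 88943, while the chains went to 8 higher and 6 lower with 66708 and 15 higher with 88943. Quantile normalization gave 8 and 6 chains with 66708, and 15 higher chains with 88943. In bulk RNA, fewer cells of a type and less RNA per cell cannot be told apart.

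Lama3 and Lamb3 were higher in both TRC lines, and by more in 88943. Lama3, the alpha chain of laminin 332, had 1455 and 1518 normalised reads with 88943 against 288 and 329 with Mgp1, 209 and 200.1 with Mgp1U1, 341 and 366 with Mgp1U3 and 218 and 262 with Mgp2. Lamb3, its beta chain, had 2382 and 2408 against 928 and 982, 642 and 633, 976 and 975, and 961 and 899.9 in the same order. The 88943 libraries were thus far above every other library of the table for each chain. The differences on the deposited log2-like scale were 1.47 ± 0.04 and 1.10 ± 0.03 (SE), with limma adjusted p of 3.726e-14 and 1.78e-13. The folds were unequal, 5.38 for Lama3 and 2.74 for Lamb3.

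In the Slpi table the same chains moved less. Lama3 had 433 and 408 normalised reads with 66708 against 262 and 291 with Slpi1U1, 288 and 328 with Slpi1U2, 368 and 345 with Slpi2 and 236 and 245 with Slpi4. Lamb3 had 1170.0 and 1126 against 623 and 672, 936 and 814, 1110.0 and 955, and 704 and 685 in the same order. In these reads the groups did not overlap for either chain, but the gap to the nearest shERWOOD library, of Slpi2, was small for Lamb3. The folds were 1.42 and 1.41 and the log2-like differences 0.27 ± 0.04 and 0.37 ± 0.05 (SE), with limma adjusted p of 3.4e-05 and 1.063e-05. With hairpin means as samples Lamb3 was no longer called (limma adjusted p = 0.0719). Epithelial markers moved with these chains: of 10 tested, 6 were higher and 2 (Krt7, Krt19) lower with 66708, and 9 were higher with 88943, beside 32.1%, 23.6% and 28.7% of all tested genes. Their summed level was 2465 to 2512 CPM with 66708 against 2181 to 2358 with its shERWOOD lines, and 2863 to 2865 CPM with 88943 against 1756 to 1951. Their part in the result was not tested.

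The balance between laminin chains differed in 88943. In RPKM, Lamb3 was 2.62 times Lama3 in 88943, 4.43 times in 66708 and 3.80 to 6.30 times in the 8 shERWOOD lines. Lama5 was 3.96 times Lama3 in 88943, 11.4 times in 66708 and 11.6 to 21.9 times in the others. Lama3 was thus below both in all 10 lines, 88943 included. These ratios span both tables and were not tested.

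**Figure D2:**
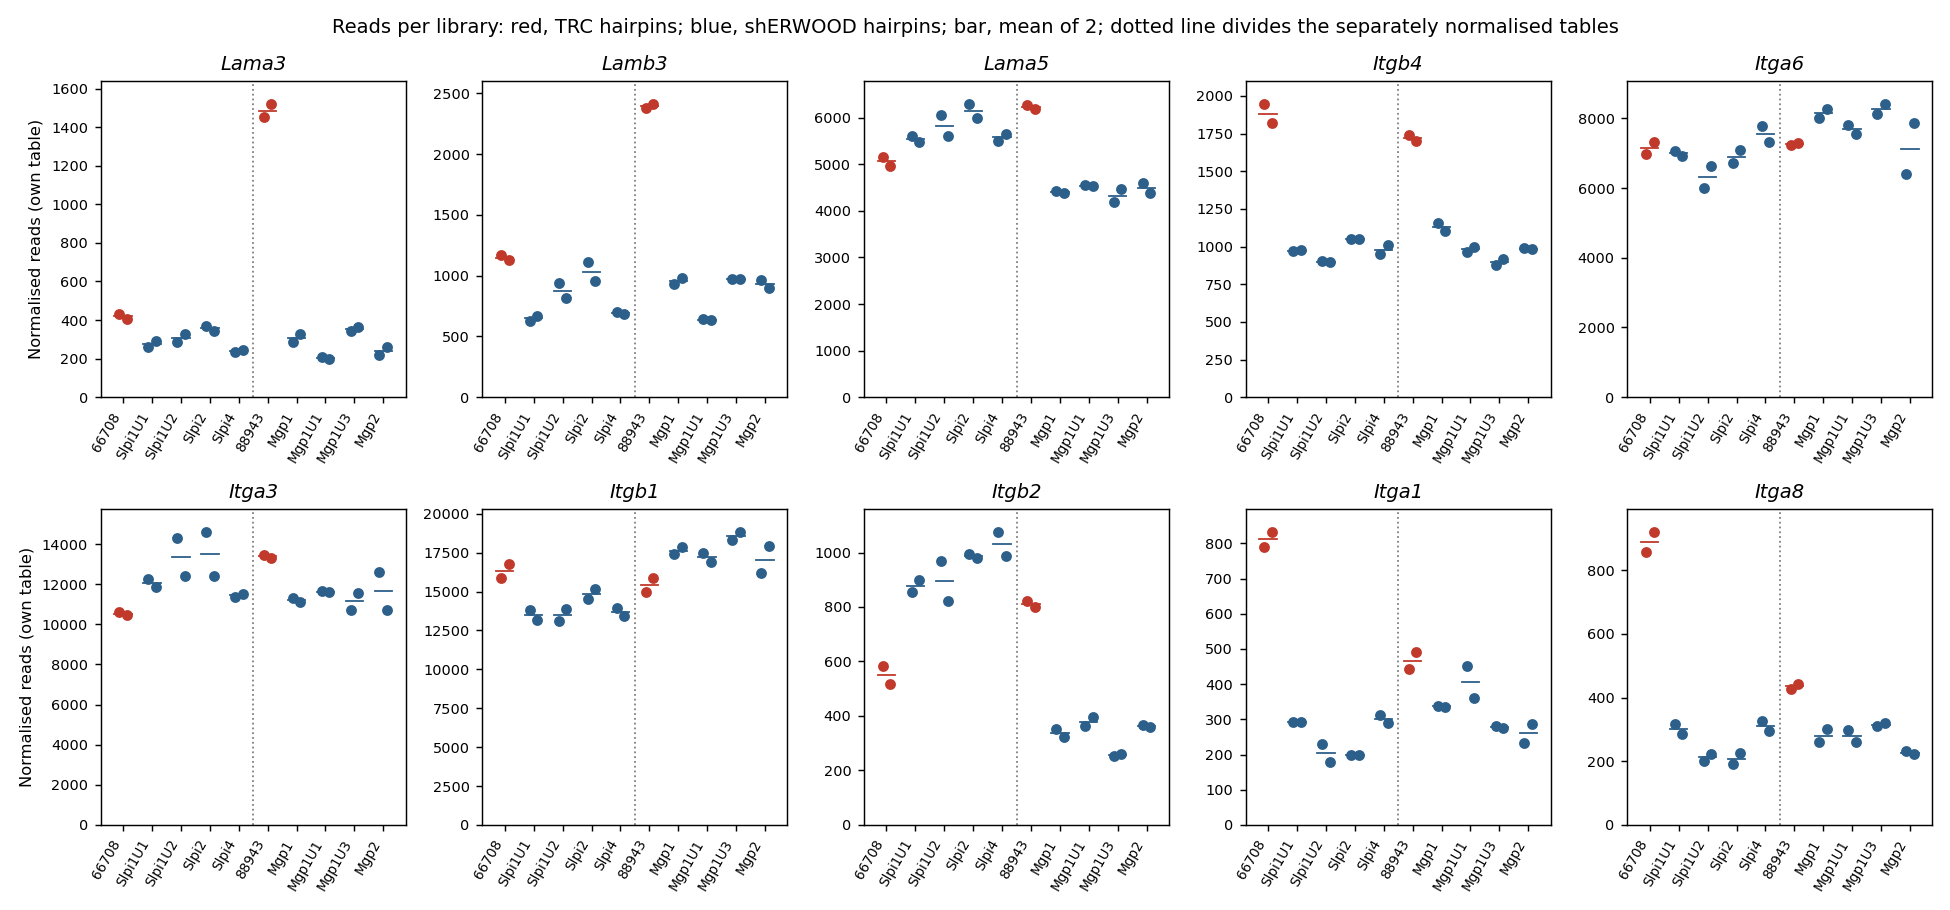
Normalised reads in each library (points) by hairpin for 10 chains, Itga6 among them as one that was not called, each panel with its own axis from 0 and the 2 tables side by side but scaled separately; TRC hairpins are red, shERWOOD hairpins blue and bars the mean of 2 libraries. Both 88943 points of Lama3, Lamb3 and Lama5 stand above all shERWOOD points of the table, and Itgb2 lies below the shERWOOD points in 66708 (582 and 516) and above them in 88943 (821 and 798).

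Not all chains of laminins 511 and 521 were higher in 66708. Lama5, their alpha chain, had 5151 and 4973 normalised reads with 66708 against 5475 to 6284 (median 5629) in the 8 shERWOOD libraries, and 6271 and 6196 with 88943 against 4180.1 to 4608 (median 4454). It was thus lower in 66708, 1.14-fold, and higher in 88943, 1.40-fold, with no overlap in either table (log2-like differences -0.17 ± 0.04 and 0.44 ± 0.03 (SE), limma adjusted p = 0.0013 and 9.38e-09). Lamb2, the beta chain of laminin 521, had 416 and 399.8 against 467 to 566 (median 525) with 66708, and 644 and 642 against 356 to 413 (median 371) with 88943. It too was lower in 66708 (1.28-fold) and higher in 88943 (1.70-fold). With hairpin means as samples Lama5 was not called in 66708 (limma adjusted p = 0.0776).

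Of Lamb1 and Lamc1, the beta and gamma chains shared by most laminins, Lamc1 was higher in both TRC lines and Lamb1 in 88943. Lamc1 had 9847 and 9774 normalised reads with 66708 against 8081 to 8816 (median 8434), and 9835 and 10089.5 with 88943 against 8115 to 9114 (median 8429.5). It was higher in both, 1.16-fold and 1.17-fold, without overlap, but in 88943 it was not called with hairpin means as samples (limma adjusted p = 0.0570). Lamb1 had 11726 and 11588 with 88943 against 8832 to 9551 (median 9152), and was 1.28-fold higher. With 66708 its 8875 and 8664 lay inside the shERWOOD range of 8314 to 9516, and the difference of -0.02 was not called (limma adjusted p = 0.702). With library totals as scaling it was called lower there (-0.10, limma adjusted p = 0.0265), and likewise with quantile normalization. The 6 tested laminin chains were all higher in 88943 (median difference 0.43), Lamc1 with the exception just given, and in 66708 3 were higher, 2 lower and 1 was not called (median 0.09).

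Among the laminin-binding receptor chains, Itgb4 was higher in both TRC lines. This is the beta chain whose long cytoplasmic tail joins hemidesmosomes, and its gene lies at chr11:115974709-116008412 (plus strand). It had 1943 and 1822 normalised reads with 66708 against 972 and 975 with Slpi1U1, 902 and 898 with Slpi1U2, 1049 and 1048 with Slpi2 and 952 and 1009 with Slpi4. With 88943 it had 1742 and 1699 against 1156 and 1105 with Mgp1, 966 and 998 with Mgp1U1, 877 and 919 with Mgp1U3 and 988 and 984 with Mgp2. The TRC libraries were above all shERWOOD libraries in both tables, 1.93-fold and 1.72-fold on average (log2-like differences 0.72 ± 0.03 and 0.58 ± 0.03 (SE), limma adjusted p = 6.123e-10 and 2.61e-10). Of its exon bases 7.655% also belong to a gene model on the other strand.

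Its partner Itga6 was not called in either line. Itga6 had 6970.2 and 7307 normalised reads with 66708 against 5988 to 7776 (median 6997), and 7225 and 7302 with 88943 against 6393 to 8397 (median 7940.5). The groups overlapped, and the differences of 0.04 ± 0.04 and -0.09 ± 0.05 (SE) had limma adjusted p of 0.431 and 0.116. Without the first Mgp2 library the difference in the Mgp table was called lower (-0.13, limma adjusted p = 4.72e-04). In RPKM, Itga6 was 2.95 times Itgb4 in 66708 and 3.28 times in 88943, and 5.12 to 7.14 times in the 8 shERWOOD lines.

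Itga3 and Itgb1, the most abundant pair, moved in opposite ways within each TRC line, and in opposite ways between the lines. Itga3, which binds laminins 332 and 511, had 10589.6 and 10467 normalised reads with 66708 against 11339 to 14593 (median 12324), and 13472 and 13317 with 88943 against 10726 to 12608 (median 11449.9). Itgb1, the common beta chain, had 15902 and 16744 with 66708 against 13102 to 15180.5 (median 13837), and 14959.7 and 15892 with 88943 against 16175 to 18818 (median 17664). In normalised reads neither chain overlapped the shERWOOD libraries in either table. In CPM Itgb1 overlapped them in both. It was at 910 and 963 CPM with 66708 against 805 to 916, and at 916 and 978 CPM with 88943 against 902 to 1044. Itga3 was 1.20-fold lower in 66708 (limma adjusted p = 0.0018) and 1.17-fold higher in 88943 (5.301e-04). Itgb1 was 1.18-fold higher in 66708 (limma adjusted p = 2.348e-04) and 1.14-fold lower in 88943 (8.421e-04). The Itgb1 call in 88943 rests on the scaling: with quantile normalization the difference turned to 0.10 (limma adjusted p = 0.0599), and with library totals it was -0.05 (adjusted p = 0.268). With hairpin means as samples Itga3 was not called in 66708 (limma adjusted p = 0.0687), nor Itgb1 in 88943 (0.100).

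Itga7, a laminin receptor chain best known from muscle, was low in all lines. It had 129 and 128 normalised reads with 66708 against 257 and 252 with Slpi1U1, 305 and 255 with Slpi1U2, 242 and 230.5 with Slpi2 and 177 and 237 with Slpi4. This was 1.90-fold lower than the shERWOOD mean, without overlap (limma adjusted p = 1.043e-05). With 88943 its 213 and 232 lay within the shERWOOD range of 197 to 260.2 (limma adjusted p = 0.991). Of the muscle markers only Tnnt2 passed the minimum, and it was higher in both TRC lines (0.48 and 0.60), while Myog had no reads in any library. The summed muscle list was at 165 to 174 CPM with 66708 against 97.2 to 137, and at 205 to 220 CPM with 88943 against 95.4 to 161. Tnnt2 alone made nearly all of this sum, with means of 168 CPM in 66708 and 210 CPM in 88943. The next highest gene of the list, Acta1, was at 0.945 to 1.34 CPM by hairpin. The part of the muscle list in the Itga7 result was not tested.

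Among the other receptor chains, Itga8 and Itga1 had the largest differences of the 19 chains in 66708. Itga8, a receptor chain for nephronectin, had 858 and 919.8 normalised reads with 66708 against 319 and 285 with Slpi1U1, 199.8 and 224 with Slpi1U2, 191 and 226 with Slpi2 and 326 and 295 with Slpi4. Itga1, a receptor chain for collagen IV and other collagens, had 791 and 832 against 292 and 293, 229.8 and 179.7, 199 and 199, and 311 and 289 in the same order. The 66708 libraries stood far above every shERWOOD library for each chain, without overlap. In 88943 both were higher too, by less: Itga8 had 427 and 443 against 221 to 319 (median 279), 1.58-fold and without overlap, and Itga1 443 and 491 against 234 to 453 (median 311), 1.46-fold and with overlap. The limma adjusted p in 88943 were 7.592e-07 and 3.167e-05. Of the exon bases of Itga8 5.049% are shared with a gene model on the other strand.

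Itga2, the other main collagen-binding chain, moved little. It had 2179 and 2255 normalised reads with 66708 against 1741 to 2153 (median 2001), and 2779 and 3021 with 88943 against 1831 to 3242 (median 2402). The groups overlapped in the Mgp table and nearly met in the Slpi table. The difference in 66708 was 0.13 (limma adjusted p = 0.0077), and without the second 66708 library it was no longer called (0.0965), nor with quantile normalization (0.0946), library totals (0.218) or hairpin means as samples (0.177). In 88943 it was 0.21 (limma adjusted p = 4.815e-04), not called with hairpin means as samples (0.326).

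Of the RGD-binding chains besides Itga8, which was higher in both TRC lines, Itgb3 was higher in 66708, and Itga5 and Itgb5 were higher in 88943. Itgb3, a partner of Itgav, had 925 and 945 normalised reads with 66708 against 495 to 706 (median 538), 1.62-fold higher without overlap (limma adjusted p = 1.084e-07), and 611 and 637 with 88943 inside a range of 505 to 855. Itga5, the fibronectin receptor chain, had 1317 and 1333 with 88943 against 737 to 1026 (median 808), 1.60-fold higher (limma adjusted p = 3.378e-07). Itgb5, another partner of Itgav, had 780.2 and 759 with 88943 against 435 to 591 (median 471), 1.55-fold higher (limma adjusted p = 7.089e-08). The groups did not overlap for these last chains either. In 66708 neither passed: Itga5 had 918 and 942 inside a range of 784 to 1083, and Itgb5 had 559 and 579.6 inside 528 to 675. Without the first Slpi1U2 library, Itga5 was called higher in 66708 (0.11, limma adjusted p = 0.0263).

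Itgav itself, which pairs with both, was nearly level. It had 5999 and 6636 normalised reads with 66708 against 5958 to 6785, and 6342 and 6539 with 88943 against 4960.4 to 6510.4 (median 6096), with overlap in both tables. The 88943 difference of 0.10 was called (limma adjusted p = 0.0264). The call was lost in 7 alternatives, among them those without the first or the second 88943 library (limma adjusted p = 0.0701 and 0.215), the first Mgp1 library (0.0506), the second Mgp1U1 library (0.0573) and the hairpin Mgp2 (0.130). The others were the fit with no filter (limma adjusted p = 0.0525) and that with hairpin means as samples (0.403).

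Itgb2, the beta chain of the leukocyte integrins, moved in opposite ways in the 2 TRC lines. It lies at chr10:77530252-77565708 (plus strand). It had 582 and 516 normalised reads with 66708 against 857 and 898 with Slpi1U1, 968 and 821 with Slpi1U2, 994 and 980.2 with Slpi2 and 1075 and 986 with Slpi4. With 88943 it had 821 and 798 against 350.3 and 321 with Mgp1, 362 and 395 with Mgp1U1, 254 and 259.7 with Mgp1U3 and 368 and 361 with Mgp2. It was 1.72-fold lower in 66708 and 2.43-fold higher in 88943, without overlap (log2-like differences -0.51 ± 0.05 and 0.73 ± 0.03 (SE), limma adjusted p = 3.698e-07 and 3.132e-11). Its alpha partners Itgal, Itgam and Itgax were at most 0.0305 RPKM in any line, while Itgb2 was at 4.65 to 20.4 RPKM. The summed level of 10 leukocyte markers went the same way as Itgb2, at 4.49 to 5.20 CPM with 66708 against 6.18 to 9.72 and at 8.08 to 8.67 CPM with 88943 against 4.76 to 6.38. Most of this sum was Cd68, with hairpin means of 3.66 CPM in 66708 against 5.91 to 7.47. In 88943 Cd68 was at 7.23 CPM against 4.19 to 4.54. S100a8 went the opposite way, at 0.439 CPM in 66708 against 0.0371 to 0.172 and at 0.219 CPM in 88943 against 0.489 to 0.819. The highest single leukocyte marker reached 8.17 CPM. Their part in the result was not tested. The shERWOOD lines themselves differed between the tables for this chain, at 17.7 to 20.4 RPKM in the Slpi table and 4.65 to 6.91 in the Mgp table, with 66708 at 10.3 and 88943 at 16.3 RPKM; levels across tables were not tested.

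**Figure D3:**
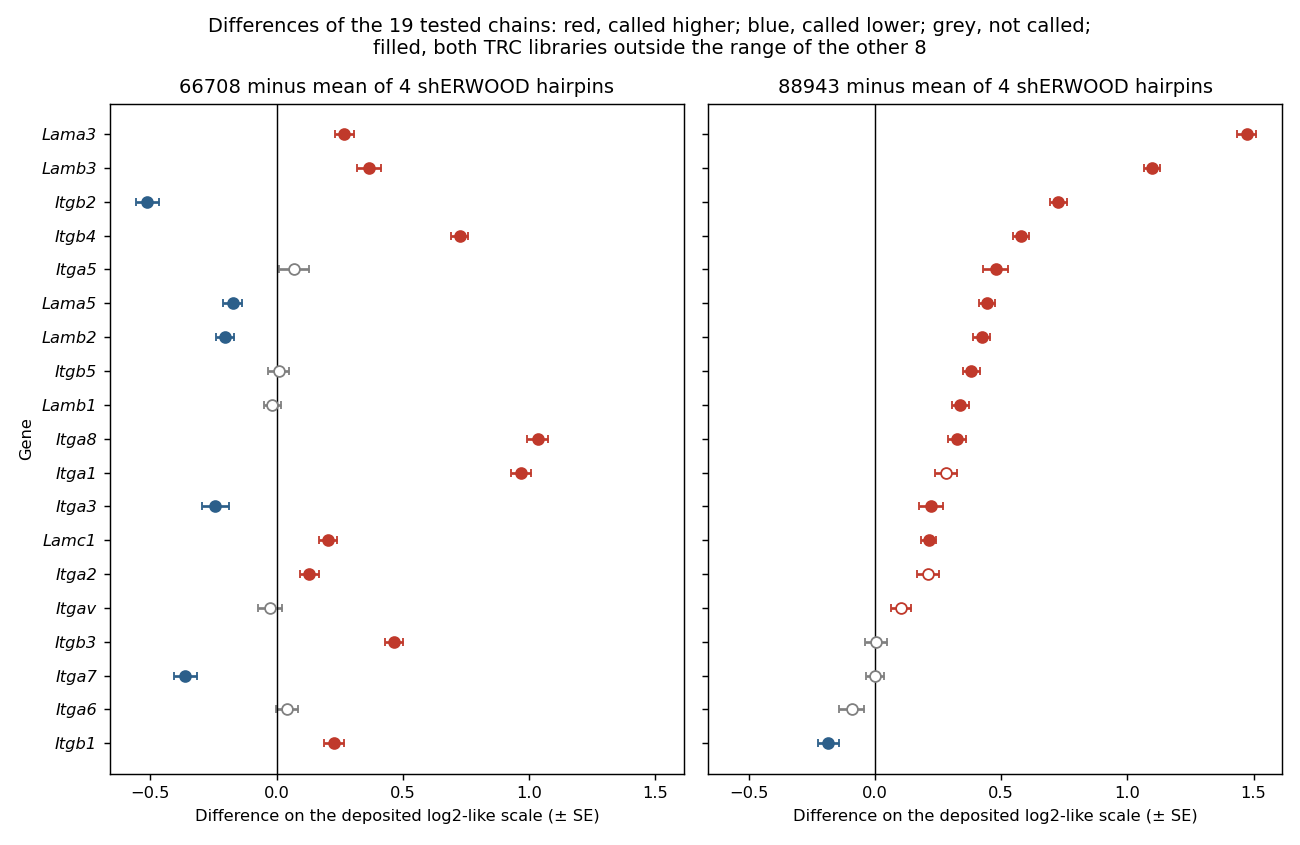
Difference of each TRC line from the mean of its 4 shERWOOD lines for the 19 tested chains, on the deposited log2-like scale with bars of ± 1 SE from the limma fit; red and blue mark called chains, and filled points those whose TRC libraries lie outside the other 8. Lama3 and Lamb3 lie right of 0 in both, and Itga3, Itgb1, Itgb2, Lama5 and Lamb2 are filled on opposite sides of 0 in the 2 lines, Itgb1 in 88943 turning to 0.10 with quantile normalization.

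The 16 chains under the minimum entered a second limma model that keeps every gene with some spread, in which 14.4% of genes were called higher and 13.2% lower in 66708, and 22.2% and 21.3% in 88943. In 66708 2 of the 16 were called higher (Itgb6, Lama4) and 3 lower (Itgae, Itgb7, Lama1), and in 88943 4 were called higher (Itga11, Itgal, Itgb6, Itgb8). Itgb6, the epithelial partner of Itgav that binds latent TGF-beta, had the most reads of them. It had 156 and 139 normalised reads with 88943 against 38.9 and 50.3 with Mgp1, 45.5 and 48.9 with Mgp1U1, 70.0 and 55.2 with Mgp1U3 and 51.2 and 56.2 with Mgp2, 2.84-fold higher without overlap (limma adjusted p = 1.338e-06). In 66708 its 69.8 and 82.3 overlapped the 48.2 to 76.3 of the shERWOOD libraries (limma adjusted p = 0.0465). Itgae and Itgb7, which form the E-cadherin receptor of lymphocytes, were lower in 66708 without overlap. Lama4 had 5 and 9 reads with 66708 and at most 2 in any shERWOOD library of the table, and Lama1 had none with 66708 and at most 5. Itgal had 1 and 4 reads with 88943 and at most 1 in any shERWOOD library of the table. No fold is given for such counts.

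Promoter sequences are shown for 4 chains on which the differences turned: Lamb3 as a chain higher in both TRC lines, Itga8 and Itga1 as the chains with the largest differences in 66708, and Lama5 as a chain that went opposite ways. Each is the 250 bases before the annotated start from RefSeq, build GRCm38.p6, read on the gene's own strand from 5′ to 3′, and windows were found for 23 of the 35 chains. The windows lie at chr1:193301744-193301993 (plus strand, Lamb3), chr2:12301945-12302194 (minus, Itga8), chr13:115101965-115102214 (minus, Itga1) and chr2:180225860-180226109 (minus, Lama5). RefSeq gave Lamb3 a second start, whose window at chr1:193301993-193302242 is not shown and held none of the motifs below either. Capitals mark matches, on either strand, of 4 motifs: AP-1 (TGANTCA), the GC box (GGGCGG), the CCAAT box (CCAAT) and the TATA box (TATAAA).
Lamb3: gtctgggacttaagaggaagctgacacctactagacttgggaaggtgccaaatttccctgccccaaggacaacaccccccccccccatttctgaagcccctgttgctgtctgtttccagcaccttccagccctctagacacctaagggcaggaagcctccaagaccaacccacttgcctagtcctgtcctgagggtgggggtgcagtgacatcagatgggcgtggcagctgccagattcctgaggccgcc
Itga8: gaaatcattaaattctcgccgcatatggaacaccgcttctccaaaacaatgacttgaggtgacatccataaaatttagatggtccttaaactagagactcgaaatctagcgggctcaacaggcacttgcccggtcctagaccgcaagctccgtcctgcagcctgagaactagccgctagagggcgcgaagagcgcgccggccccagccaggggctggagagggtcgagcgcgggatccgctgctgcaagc
Itga1: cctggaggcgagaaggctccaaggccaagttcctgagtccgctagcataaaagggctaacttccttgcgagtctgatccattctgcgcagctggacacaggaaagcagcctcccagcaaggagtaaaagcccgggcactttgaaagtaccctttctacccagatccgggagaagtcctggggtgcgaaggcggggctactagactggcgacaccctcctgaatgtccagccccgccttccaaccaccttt
Lama5: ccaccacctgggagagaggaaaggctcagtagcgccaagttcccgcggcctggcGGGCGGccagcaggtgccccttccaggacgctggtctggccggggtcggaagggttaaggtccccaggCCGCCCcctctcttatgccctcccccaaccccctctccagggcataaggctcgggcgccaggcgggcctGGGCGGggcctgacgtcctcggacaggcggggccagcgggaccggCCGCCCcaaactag
The Lama5 window held 4 GC boxes, and the windows of Lamb3, Itga8 and Itga1 held none of the 4 motifs. Over all 32851 windows of this length, 32.7% held a GC box, 33.9% a CCAAT box, 12.4% a TATA box and 6.75% an AP-1 motif. The Lama5 window had 72.4% G and C and 19 CG dinucleotides, Itga8 56.4% and 18, Itga1 57.6% and 10 and Lamb3 58.8% and 2, beside medians of 52.4% and 6 over all windows. Itga8 and Itga1, the chains with the largest differences in 66708, cannot be compared by these motifs, since both windows lacked all 4. A match is a description and not a binding site.

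The chains also differed among lines with shERWOOD hairpins alone, which share drug and target. An F test over the 4 shERWOOD hairpins called 5 of 19 chains in the Slpi table (7.55% of all tested genes) and 11 of 19 in the Mgp table (29.4%). The 5 were Itga1, Itga8, Itgb3, Lama3 and Lamb3, and the 11 were Itga1, Itga2, Itga8, Itgav, Itgb2, Itgb3, Itgb4, Itgb5, Lama3, Lamb3 and Lamc1. With 1 library left out in turn the counts ran from 4 to 8 (8 without the second Slpi1U2 library) and from 9 to 15. The all-gene counts behind these shares, 716 and 2699, moved by more. Without the second Slpi1U1 library the first was 1285, and without either library of Slpi2 or of Slpi4 it was 354 to 400. Without the second Mgp2 library the other was 4509, and without either library of Mgp1 or of Mgp1U1 or the second of Mgp1U3 it was 1490 to 1733. By pairs in the Slpi table, 2 chains were called between Slpi1U2 and Slpi1U1 (0.79% of all genes), 4 between Slpi2 and Slpi1U1 (4.66%), 1 between Slpi4 and Slpi1U1 (2.4%), 5 between Slpi4 and Slpi1U2 (6.48%) and 6 between Slpi4 and Slpi2 (4.18%). Between Slpi2 and Slpi1U2 limma called 0 chains, with 6 at an unadjusted p under 0.05 (1.64% of all genes called).

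In the Slpi lines, Slpi2 and Slpi4 differed for 2 sets of chains. For Lama3 and Lamb3 Slpi4 was below Slpi2, by 0.27 and 0.39 on the log2-like scale (limma adjusted p = 0.0041 and 0.0012). For Itga1, Itga8 and Itgb3 it was above Slpi2, by 0.27, 0.26 and 0.30 (limma adjusted p = 0.0074, 0.0087 and 0.0015). Lama3 and Lamb3 were also higher in Slpi2 than in Slpi1U1, by 0.18 and 0.45, while Itga1 and Itga8 were lower by 0.25 and 0.24. So the 2 sets went opposite ways in these pairs, whereas in 66708 all 5 chains were higher than in the shERWOOD lines. Itgb3 was at 701 and 706 normalised reads in Slpi4 and at 495 to 609 in the other 3 lines, without overlap.

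In the Mgp lines, by pairs, 4 chains were called between Mgp1U1 and Mgp1 (8.26% of all genes), 5 between Mgp2 and Mgp1 (12.0%), 4 between Mgp1U3 and Mgp1 (7.24%), 4 between Mgp2 and Mgp1U1 (7.68%), 6 between Mgp1U3 and Mgp1U1 (7.66%) and 8 between Mgp1U3 and Mgp2 (25.1%). The 2 libraries of Mgp2 differed more from each other than those of any other hairpin (chi-square per degree of freedom 12.1, against 1.57 to 5.99 elsewhere). Itga2 was highest in Mgp1U3, with 3039 and 3242 normalised reads, and lowest in Mgp2, with 1831 and 2148, a difference of 0.55 ± 0.06 (SE; limma adjusted p = 1.504e-05). Mgp1 had 2655 and 2691 Itga2 reads and Mgp1U1 2129 and 2081, so the 88943 values of this chain fell inside the spread of the shERWOOD lines.

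Lamb3 and Lama3 were lowest in Mgp1U1. Lamb3 was lower in Mgp1U1 than in Mgp1 by 0.37 (limma adjusted p = 6.165e-05), and Mgp2 and Mgp1U3 were above Mgp1U1 by 0.35 and 0.39. Lama3 was 0.35 higher in Mgp1U3 than in Mgp1U1 (limma adjusted p = 4.948e-04), and lower in Mgp1U1 than in Mgp1 by 0.25 (0.0052). Its difference of 0.09 between Mgp2 and Mgp1U1 was not called (limma adjusted p = 0.271). Itgb3 was higher in Mgp1U3, with 855 and 740.3 normalised reads, than in Mgp1, with 551 and 505 (0.36, limma adjusted p = 0.0013). Itgb2 went the other way and was lower in Mgp1U3 than in each of the other 3 lines, by 0.18 to 0.26.

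For receptors and ligands, each complex, and the pair of Lama3 and Lamb3, was taken at the RPKM of its least abundant chain, a convention that says nothing of protein. A chain shared by several complexes, such as Itga6 or Itgb1, counts in full for each, so these levels are not separate pools. Itga3 with Itgb1 stood at 123 RPKM on average (limited by Itga3 in all 10 lines), Itga6 with Itgb1 at 47.6 RPKM, Itga6 with Itgb4 at 9.63 RPKM (limited by Itgb4) and Itga7 with Itgb1 at 1.61 RPKM. Laminin 511 stood at 27.0 RPKM (limited by Lama5), laminin 521 at 4.53 (limited by Lamb2) and the pair of Lama3 and Lamb3 at 2.32 (limited by Lama3). The order among these receptors, and of 511 above 521 and the pair, was the same in all lines. The pair was below 521 in 9 lines and above it in 88943, at 8.49 against 6.49 RPKM. With the longest transcript as the gene length Itga6 with Itgb1 came to 99.6 RPKM, so its level depends on the gene model, and each complex named here kept its limiting chain.

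The Itga6 and Itgb4 receptor was more abundant than Lama3 in all 10 lines, by a factor that was lowest in 88943. It was at 15.4 RPKM in 66708 and 15.1 in 88943 and at 7.07 to 9.10 in the others. The ratio to Lama3 was 1.77 in 88943, 6.86 in 66708 and 3.90 to 7.36 in the shERWOOD lines. Set against laminin 511 the same receptor was the lower in all 10 lines, at ratios of 0.251 to 0.604. Itgb4, the limiting chain, and Lama3 were 1.93-fold and 1.42-fold higher in 66708 and 1.72-fold and 5.38-fold higher in 88943. Itga3 with Itgb1 exceeded Lama3 by a factor of 17.0 in 88943 to 107 in Mgp1U1, and laminin 511 by 4.09 to 5.17. Itga6 with Itgb1 exceeded laminin 511 by 1.37 to 2.41. Ratios between tables were not tested.

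**Figure D4:**
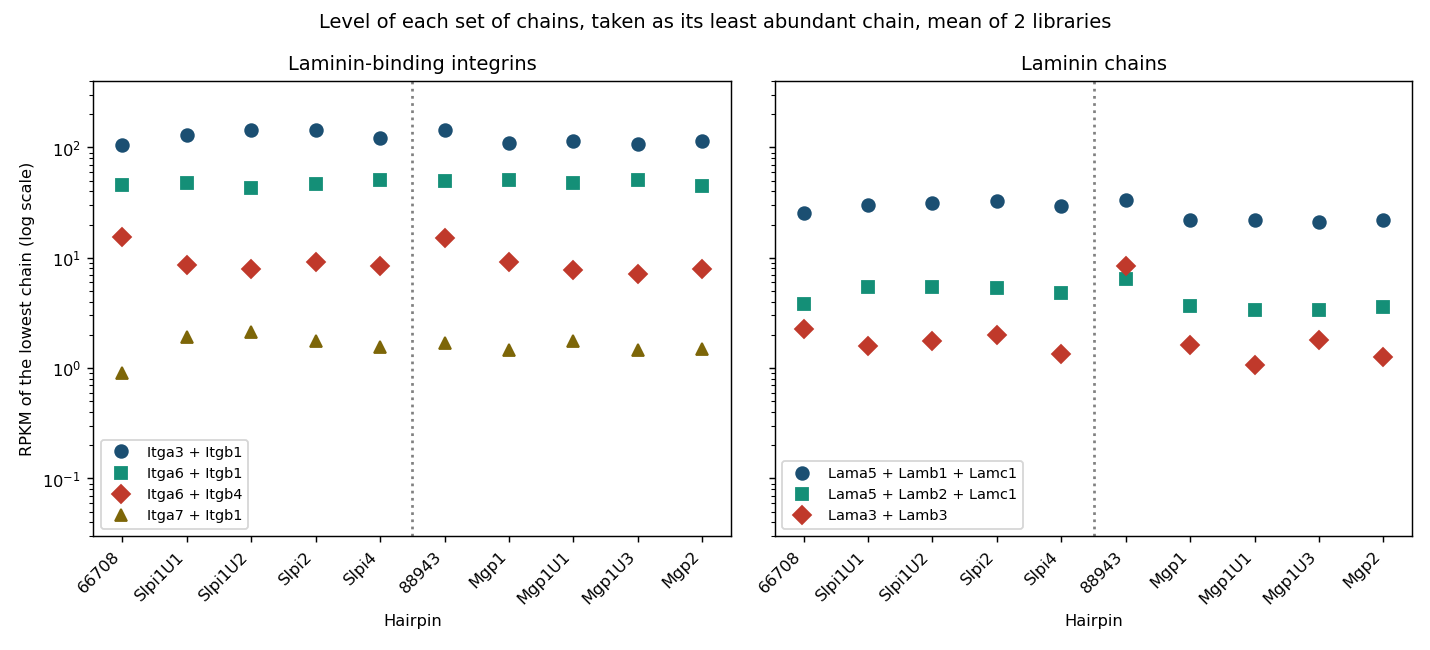
Level of laminin-binding integrins (left) and laminin chains (right) in RPKM on a log scale, each set at its least abundant chain, mean of 2 libraries, by hairpin; the dotted line parts the Slpi table from the Mgp table. Itga6 with Itgb4 is at 15.4 and 15.1 RPKM in 66708 and 88943, above 7.07 to 9.10 in the other 8 lines, and Lama3 with Lamb3 reaches 8.49 RPKM in 88943.

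Other receptors met ligands of very different abundance. Fn1, fibronectin, was at 403 RPKM and Spp1, osteopontin, at 950 RPKM on average, so Itga5 with Itgb1 was 0.0235 to 0.0316 of Fn1 and Itgav with Itgb3 0.00531 to 0.00785 of Spp1. Itga8 with Itgb1 was at 0.661 of its ligand Npnt (nephronectin) in 66708, 0.524 in 88943 and 0.177 to 0.365 in the other lines. Itga1 with Itgb1 was 0.0179 to 0.0570 of collagen IV (Col4a1 with Col4a2), which averaged 39.0 RPKM. The reverse held for Itga2 with Itgb1, at 18.9 RPKM, against collagen I (Col1a1 with Col1a2), which averaged 0.00593 RPKM. Other collagens were not set against this receptor. The reverse also held for vitronectin (Vtn), at 0.0279 RPKM. Vcam1 at 5.13, Icam1 at 3.69 and Cdh1 at 108 RPKM were present, while the alpha chains that bind them, Itga4, Itgal and Itgae, were at 0.00201, 0.00651 and 0.548 RPKM.

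Lists of other genes of the pathway held calls in both directions. Their counts stand beside 32.1% of all tested genes called higher and 23.6% lower in 66708, and 28.7% and 42.0% in 88943. Of 8 tested basement membrane partners, 4 were higher and 2 lower in 66708, and 4 were higher and 1 lower in 88943 (list medians 0.08 and 0.08). Hspg2, the proteoglycan perlecan, was lower in 66708 (-0.40) and higher in 88943 (0.40), and Col4a1 was higher (0.38) and lower (-0.24). Agrn, which links laminin to dystroglycan, was lower in 66708 (-0.45) and Col4a2 higher (0.35), and Col18a1 and Col4a5, other basement membrane collagens, were higher in 88943 (0.69 and 0.34). The limma adjusted p of these genes was at most 5.241e-05. Of 5 tested non-integrin laminin receptors, 4 were higher in 66708 and the fifth was not called (median 0.19), and 1 was higher and 2 lower in 88943 (median 0.01). Sdc1, a syndecan, was higher in 66708 (0.52) and lower in 88943 (-0.28). Dag1, dystroglycan, was higher in both (0.13 and 0.37).

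Of 7 tested hemidesmosome and tetraspanin partners, 5 were higher and 1 lower in 66708, and 3 were higher and 2 lower in 88943 (medians 0.22 and 0.08). Dst, the plakin that ties hemidesmosomes to keratin, was lower in 66708 (-0.66), opposite to Itgb4, and higher in 88943 (0.20). Cd151, a tetraspanin that binds laminin-binding integrins, was higher in 66708 (0.35), and Cd9 was higher in 66708 (0.47) and lower in 88943 (-0.49). Of 16 tested other integrin ligands, 10 were higher and 5 lower in 66708 and 9 higher and 6 lower in 88943 (medians 0.14 and 0.14). Among them Col6a1 was higher in both (0.69 and 0.49), Thbs1 was higher in 66708 (0.56) and lower in 88943 (-0.77), Spp1 and Ctgf were higher in 66708 (0.67 and 0.63), and Tnc, tenascin C, was lower in 88943 (-0.99), as was Cyr61 (-0.51). Of 25 tested adaptors, the proteins that couple integrins to actin and signals, 7 were higher and 5 lower in 66708, and 5 were higher and 12 lower in 88943 (medians 0.02 and -0.08), shares near those of all genes. Fermt1 was higher (0.50) and Fermt2 lower (-0.38) in 66708, both kindlins that activate integrins, and Zyx, a focal adhesion protein, was higher in 66708 (0.32) and lower in 88943 (-0.30).

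Endothelial and platelet markers summed to at most 6.41 CPM, and fibroblast markers to more. The summed endothelial list was at 1.75 to 2.79 CPM with 66708 against 4.25 to 6.41 with its shERWOOD lines, and at 3.30 to 4.87 CPM with 88943 against 4.49 to 6.29, and Erg had no reads. The platelet list was at 0.904 to 1.12 CPM against 1.02 to 2.46 and at 1.60 to 1.72 CPM against 1.38 to 3.18, and Gp6 had no reads. The fibroblast list was at 42.0 to 42.2 CPM against 40.2 to 53.6 with 66708 and at 55.4 to 58.2 CPM against 25.1 to 34.5 with 88943, where 1 of its 8 genes, Pdgfra, passed the minimum and was higher (0.48). Pdgfra made nearly all of the fibroblast sum, with means of 41.7 CPM in 66708 and 56.1 CPM in 88943. Tie1 made most of the endothelial sum, with means of 1.47 CPM in 66708 and 3.07 CPM in 88943. The part of these lists in the differences of the chains was not tested.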

How the data were processed

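The 2 deposited tables hold 20 columns, 2 for each of 10 hairpins, while 40 samples are labelled, 4 for each hairpin; a column could be tied to its hairpin but not to a single sample. The authors' deposited values are variance-stabilized and on a log2-like scale, made per the submitters' processing notes with Bowtie2, mm10, HTSeq and DESeq, in no stated order or version. Total RNA was amplified by a NuGEN kit and read at 76 bp, per the labels' protocols. The sources used here give no counting annotation and no strand setting.

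Inverting the transform gave whole reads for 100% of values (tolerance 0.001). Normalised reads keep the size factors of the authors' tables; CPM and RPKM use library totals, and lengths from GENCODE M21. Levels across tables were not tested. Genes with a mean at least 1 unit above the table's smallest value (121 normalised reads in one table, 139 in the other) were tested, 9489 and 9174 genes, by limma 3.58.1 in R 4.3.3 with an intensity trend, 1 mean per hairpin and Benjamini-Hochberg adjustment over all genes tested. The contrast was a TRC hairpin minus the mean of 4 shERWOOD hairpins, two-sided, and an F test compared the 4. Scripts were tested on simulated data. Promoters are from RefSeq.

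The members and the gene lists were chosen with earlier results of these data known; 1 chain and 1 marker gene are not reported here. Values in every library are given for called chains with the largest differences (up to 8 in each direction), for laminin-binding receptors and for Lama3 and Lamb3; up to 4 called genes are named per list and contrast. Alternatives were other filters and normalizations, library totals, no trend, limma-voom on the recovered reads with TMM scaling, hairpin means, and leaving out each library or hairpin.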

Additional observations from a re-analysis of the deposited data

Results flagged for a closer look

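For 5 chains the TRC line and its shERWOOD lines differed in opposite directions in the 2 tables, with both TRC libraries outside the 8 shERWOOD libraries each time in normalised reads. In CPM the Itgb1 libraries overlapped in both tables. The difference between the 2 contrasts was not tested, since the tables share no library and were normalised apart. On the deposited log2-like scale Itgb2 differed by -0.51 in 66708 and 0.73 in 88943, and Lama5 by -0.17 and 0.44. Lamb2 differed by -0.20 and 0.42, and Itga3 by -0.24 and 0.22. Itgb1 went the other way, 0.23 and -0.18, and its value in 88943 turned positive with quantile normalization.

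The shERWOOD lines of the 2 tables also stood apart for these chains, a comparison of levels chosen after seeing the data and without a test. In RPKM, Lama5 was at 29.5 to 32.7 in the Slpi shERWOOD lines and 21.0 to 22.2 in the Mgp shERWOOD lines, with 66708 at 25.5 and 88943 at 33.6. Lamb2 was at 4.77 to 5.47 and 3.35 to 3.68, with 66708 at 3.85 and 88943 at 6.49. Itga3 was at 121 to 144 and 108 to 115, with 66708 at 106 and 88943 at 144. Itgb1 was at 203 to 221 and 234 to 251, with 66708 at 229 and 88943 at 232. Itgb2 showed the widest gap of the 5, as given above with its values. Target gene and table coincide for these lines and cannot be told apart.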

How the results depend on the processing

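Over the alternatives, 404 of 426 values of the 19 chains kept direction and side of the threshold in 66708 and 393 of 426 in 88943; 7 and 11 lost their call, 3 and 2 gained one, and 12 and 20 changed sign. The chains counted were 9 higher and 5 lower in 66708, 15 higher and 1 lower in 88943, and 5 and 11 among shERWOOD hairpins of the Slpi and the Mgp table. With a minimum of 3 units above the smallest value fewer chains are tested, and these became 3, 2, 6, 1, 0 and 3. With no filter, and without hairpin Slpi4, 3 were called among shERWOOD hairpins of the Slpi table. With hairpin means as samples 3 were lower in 66708 and 0 in 88943. That setting also lost the higher calls of Itga2 and Lamb3 in 66708 and of Itga2, Itgav and Lamc1 in 88943. With quantile normalization or library totals (chosen after seeing the data) 0 were lower in 88943, and without hairpin Mgp2 2 were. The cause of these changes was not tested. Leaving out 1 replicate gave 8 to 10, 5 to 5, 14 to 15, 1 to 2, 4 to 8 and 9 to 15; a lone TRC library was then assumed to vary like the other groups. Differences that changed sign were small. In 66708 they were Itgb5 (-0.019 with equal medians, -0.020 with quantile normalization, -0.046 with library totals, -0.00017 without hairpin Slpi1U1, -0.0021 without hairpin Slpi4, -0.012 to 0.029 without 1 replicate), Itga6 (-0.034 with quantile normalization, -0.043 with library totals, -0.00079 without hairpin Slpi1U2), Lamb1 (0.014 without hairpin Slpi2) and Itgav (-0.095 to 0.040 without 1 replicate). In 88943 they were Itga7 (0.043 with equal medians, 0.055 with library totals, 0.038 with voom, 0.026 without hairpin Mgp1U1, -0.026 to 0.025 without 1 replicate), Itga6 (0.092 with quantile normalization, 0.034 with library totals), Itgb1 (0.098 with quantile normalization) and Itgb3 (-0.040, -0.0014 and -0.017 without hairpins Mgp1, Mgp1U1 and Mgp2, -0.012 to 0.023 without 1 replicate). Over all genes, calls in 66708 went from 5285 to 1735 with a minimum of 3 units and to 3042 with hairpin means, and in 88943 from 6490 to 1928 and 4151. Among shERWOOD hairpins they went from 716 to 272 with no filter, 314 with 3 units, 367 without Slpi2 and 287 without Slpi4, and from 2699 to 1483, 994, 1730 without Mgp1 and 1674 without Mgp1U3. The share of calls that were higher in 88943 went from 40.6% to 23.4% with 3 units, 51.0% with no filter and 50.8% with voom. A replicate block on the column numbers gave 9 and 5 chains in 66708, 15 and 1 in 88943, and 5 and 12 among shERWOOD hairpins, but same-numbered columns share only a number: their deviations correlated between -0.53 and 0.55 in the Slpi table and between -0.17 and 0.28 in the Mgp table. At this depth the 9 chains lacking reads in some libraries cannot be compared between lines beyond the counts given.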
